A study of Homo sapiens with 4 samples.

Results

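The MAGE-A and MAGE-B antigens are 10 genes of the melanoma antigen family on the X chromosome, 8 of the MAGE-A group (MAGEA1, MAGEA3, MAGEA4, MAGEA6, MAGEA8, MAGEA10, MAGEA11 and MAGEA12) and 2 of the MAGE-B group (MAGEB1 and MAGEB2). They were chosen by gene name, and their probes were found through the RefSeq accession that the array files give for each probe. Of the 10 genes, 9 had a matched probe, with 10 probes in all, among 21611 genes with a matched probe and 50594 probes on the array. No probe was matched to MAGEA3. Their RNA was measured in HCT116 cells, a human colorectal carcinoma line, on 4 one-colour Agilent arrays. The MG cells had been enriched by repeated rounds of migration through the membrane of a transwell chamber, and the non-MG cells were those that had stayed on the upper side. Each subpopulation was treated for 48 h with 5 µM 5-azacytidine or was a control, called vehicle below. This gave 4 groups: non-MG cells with vehicle, non-MG cells with 5-azacytidine, MG cells with vehicle and MG cells with 5-azacytidine. The wild-type line is the only genotype, no group carries a transgene, and both subpopulations come from 1 parental line.

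Each condition had 1 array, so there are no replicates, the differences have no replicate check, no test between conditions was made, and the 4 arrays limit the precision of every value. The error given with a ratio is the spot error, the SD expected from the scatter between spots of one probe on an array, which leaves out the spread between cultures and labellings. All 4 arrays lay on 1 slide, with non-MG cells in the first slide row, MG cells in the second, vehicle in one column and 5-azacytidine in the next, so position on the slide cannot be told apart from cell type and treatment. On each array, between 21382 and 21881 probes were well above background, a flag set by the scanner software, and no spot was saturated. All 8 epithelial markers were well above background on all 4 arrays. PTPRC, the pan-leukocyte marker, was well above background on none.

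Members of the MAGE family share a MAGE homology domain, through which many of them bind RING-type ubiquitin ligases and direct their substrates. Type I members, to which the MAGE-A, MAGE-B and MAGE-C groups belong, are cancer-testis antigens: in adults they are largely restricted to male germ cells and are switched on in many tumours, where their peptides are presented on HLA class I molecules to T cells. In somatic tissue their CpG-rich promoters are methylated. 5-Azacytidine is built into nucleic acids and traps DNA methyltransferases, so that DNA made afterwards is less methylated. The contrast drawn here is between antigens that HCT116 cells already expressed with vehicle and antigens that came above background with 5-azacytidine. DNA methylation was not measured on these arrays.

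The promoter sequences of 6 of the genes are shown because these antigens responded differently to the same drug. Each run holds the 200 bases before the most upstream RefSeq transcription start (GRCh38.p14), written 5′ to 3′ on the strand of the gene, with every CpG, the site of methylation, in capitals. MAGEA6 (chrX:152769690-152769889, minus strand) and MAGEB2 (chrX:30215363-30215562, plus strand) were expressed with vehicle. MAGEA4 (chrX:151912274-151912473, plus strand) was expressed with vehicle and rose with 5-azacytidine. MAGEA8 (chrX:149880983-149881182, plus strand) came above background with 5-azacytidine in both subpopulations, and MAGEB1 (chrX:30243531-30243730, plus strand) in the MG cells alone. MAGEA11 (chrX:149711860-149712059, plus strand) was well above background on none of the arrays.
MAGEA6: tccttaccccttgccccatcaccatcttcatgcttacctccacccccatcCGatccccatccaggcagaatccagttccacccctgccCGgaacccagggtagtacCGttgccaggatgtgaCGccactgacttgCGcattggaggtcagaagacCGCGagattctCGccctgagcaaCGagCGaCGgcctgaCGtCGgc
MAGEB2: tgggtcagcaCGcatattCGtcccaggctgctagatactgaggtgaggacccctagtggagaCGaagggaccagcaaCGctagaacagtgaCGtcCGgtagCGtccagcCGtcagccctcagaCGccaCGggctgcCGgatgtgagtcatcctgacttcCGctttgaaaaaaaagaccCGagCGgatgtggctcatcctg
MAGEA4: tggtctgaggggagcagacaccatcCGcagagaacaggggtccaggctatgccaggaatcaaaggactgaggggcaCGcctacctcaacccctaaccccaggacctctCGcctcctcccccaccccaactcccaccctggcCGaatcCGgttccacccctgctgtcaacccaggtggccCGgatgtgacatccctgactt
MAGEA8: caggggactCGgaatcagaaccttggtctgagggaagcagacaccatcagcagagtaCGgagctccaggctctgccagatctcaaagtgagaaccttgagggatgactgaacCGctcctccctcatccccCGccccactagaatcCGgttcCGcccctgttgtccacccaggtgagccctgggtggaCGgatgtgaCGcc
MAGEB1: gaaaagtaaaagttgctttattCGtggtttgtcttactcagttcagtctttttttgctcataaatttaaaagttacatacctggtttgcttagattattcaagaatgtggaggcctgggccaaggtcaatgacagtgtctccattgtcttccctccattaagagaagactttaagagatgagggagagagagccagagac
MAGEA11: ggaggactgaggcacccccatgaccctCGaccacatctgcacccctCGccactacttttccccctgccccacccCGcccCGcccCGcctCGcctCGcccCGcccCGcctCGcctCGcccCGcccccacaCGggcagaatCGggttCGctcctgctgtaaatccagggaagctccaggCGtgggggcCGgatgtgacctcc

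The printed runs hold 13 CpG for MAGEA6, 14 for MAGEB2, 6 for MAGEA4, 8 for MAGEA8, 1 for MAGEB1 and 17 for MAGEA11. Many of the CpG of MAGEA11 lie in one tandem stretch of cytosine-rich repeats about the middle of the run.

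Of the 9 members with a probe, 4 (MAGEA4, MAGEA6, MAGEA12 and MAGEB2) were well above background on all 4 arrays, compared with 59.0% of all genes with a matched probe. MAGEA1 and MAGEA8 were well above background only with 5-azacytidine, in both subpopulations. Of all genes that were well above background on neither vehicle array, 1.64% were so on both arrays with 5-azacytidine. MAGEB1 was well above background only in MG cells with 5-azacytidine. MAGEA10 and MAGEA11 were well above background on no array. A change in RNA can mean more cells that express a gene or more RNA per cell, which cannot be told apart in bulk RNA. Signals below are background-corrected intensities of one probe that are not scaled between arrays, and they cannot be compared between probes. The 75th percentile of the signals ran from 75.2 in non-MG cells with 5-azacytidine to 98.7 in MG cells with vehicle. A level is the log2 signal minus the 75th percentile of its array. The ratios given between arrays are differences of levels, and may differ in direction from the signals.

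**Figure D1:**
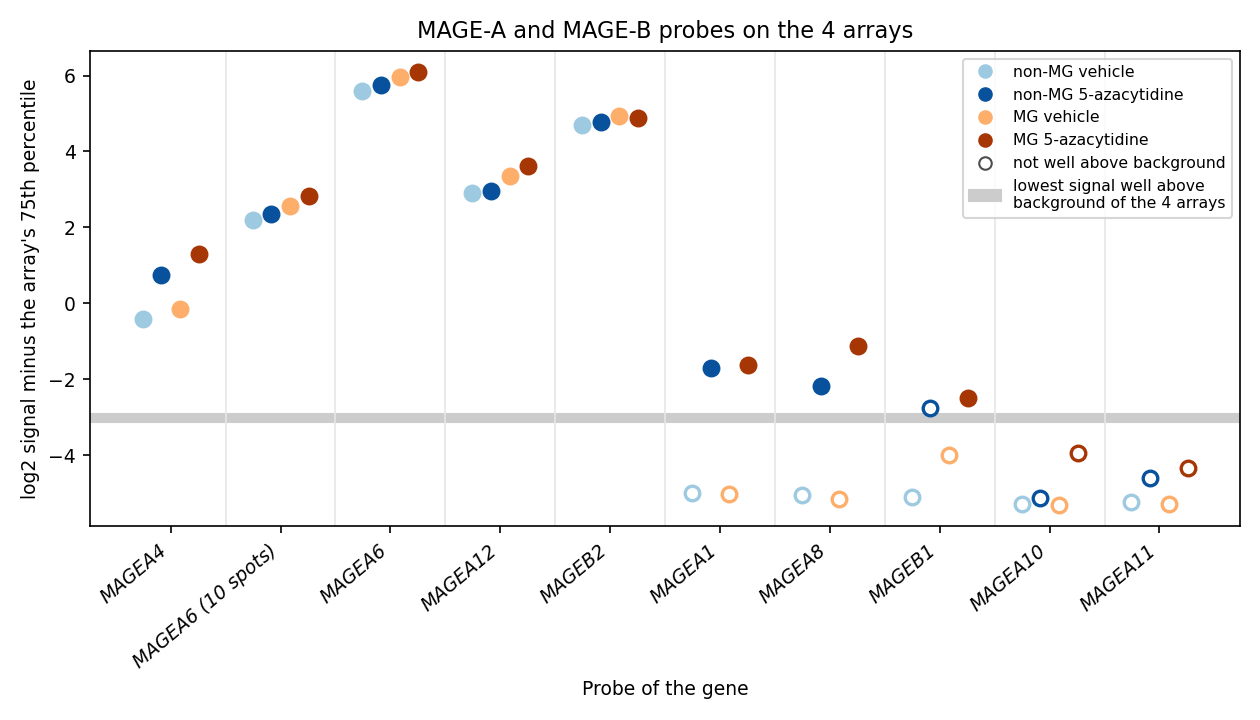
Level of each MAGE probe (log2 signal minus the 75th percentile of its array, vertical axis) on the 4 arrays, with 1 point per array, colours for the groups and open points for signals not well above background. The 5 probes of MAGEA4, MAGEA6, MAGEA12 and MAGEB2 lie above the grey band of detection limits on every array, and those of MAGEA1 and MAGEA8 lie above it only with 5-azacytidine.

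MAGEA6, which with its close relative MAGEA3 binds TRIM28 and directs AMPK for degradation, was measured by 2 probes. The probe printed in 10 spots had a signal of 401 in non-MG cells with vehicle, 383 in non-MG cells with 5-azacytidine, 582 in MG cells with vehicle and 688 in MG cells with 5-azacytidine. On these arrays 9 or 10 of its spots were kept, all were well above background, and the SD between them lay between 0.05 and 0.07 on the log2 scale. The other probe had a signal of 4222, 4087, 6125 and 6546 on the same arrays. After scaling, both probes stayed within 1.5-fold with 5-azacytidine: the log2 ratio was 0.14 ± 0.03 (spot error) and 0.16 ± 0.07 in non-MG cells, and 0.28 ± 0.03 and 0.13 ± 0.07 in MG cells. MAGEA6 was thus expressed on every array, and no ratio of either probe to vehicle passed the 1.5-fold threshold.

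MAGEA12, which lies between MAGEA3 and MAGEA6 in the same gene block and encodes an antigen recognised by T cells, had a signal of 651 in non-MG cells with vehicle, 587 in non-MG cells with 5-azacytidine, 1004 in MG cells with vehicle and 1189 in MG cells with 5-azacytidine. With 5-azacytidine its log2 ratio to vehicle was 0.06 ± 0.09 in non-MG cells and 0.28 ± 0.08 in MG cells. Both MG arrays were the higher ones. MAGEB2, a MAGE-B member normally made in the testis, had a signal of 2272, 2058, 3016 and 2843 in the same order of arrays. Its log2 ratio with 5-azacytidine was 0.07 ± 0.07 in non-MG cells and -0.05 ± 0.07 in MG cells. For MAGEA6, MAGEA12 and MAGEB2 the arrays of the subpopulations lay further apart than those of the treatments, except that with quantile normalization the MG and non-MG arrays of MAGEB2 with 5-azacytidine hardly differed.

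MAGEA4, an antigen that is a target of engineered T cell receptors, was the member that was expressed with vehicle and also rose. Its signal was 65.4 in non-MG cells with vehicle, 127 in non-MG cells with 5-azacytidine, 88.5 in MG cells with vehicle and 239 in MG cells with 5-azacytidine. Both arrays with 5-azacytidine lay above both arrays with vehicle. The rise was 2.25-fold in non-MG cells (log2 ratio 1.17 ± 0.11, spot error) and 2.77-fold in MG cells (log2 ratio 1.47 ± 0.11). It is the only member whose rise was measured against a vehicle signal above background in both subpopulations. With normexp background correction (offset 50) in place of the deposited one, its log2 ratio was 0.59 in non-MG cells, just past 1.5-fold, and it passed in MG cells too. The offset is added to every signal and by itself makes ratios smaller, most of all for dim probes.

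MAGEA1, the first antigen of the family to be described, had a signal of 2.73 in non-MG cells and 3.01 in MG cells with vehicle, neither well above background. With 5-azacytidine its signal was 23.0 in non-MG cells and 31.0 in MG cells, both well above background. Since the dim arrays give only a limit, the rise was set against the lowest signal well above background there, and was at least 2.65-fold in non-MG cells and at least 2.77-fold in MG cells. The levels with 5-azacytidine differed between the subpopulations by 0.07 ± 0.28 on the log2 scale, less than the spot error.

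MAGEA8, a MAGE-A antigen of which less is known, had a signal of 2.64 in non-MG cells and 2.76 in MG cells with vehicle, neither well above background. With 5-azacytidine the signal was 16.5 in non-MG cells and 43.9 in MG cells, both well above background. The rise was at least 1.90-fold in non-MG cells and at least 3.92-fold in MG cells. With normexp its log2 ratios to vehicle were smaller, 0.72 and 0.85, and still past 1.5-fold. With 5-azacytidine MAGEA8 was 2.07-fold higher in MG cells than in non-MG cells (log2 ratio 1.05 ± 0.24, spot error). With normexp this log2 ratio was 0.02, so the difference depended on the processing. The offset by itself makes ratios between such dim signals smaller, and normexp also changes the background correction and takes the median spot intensity. How much each of these lowered the ratio was not tested.

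MAGEB1, the other MAGE-B member, had a signal of 2.54 in non-MG cells and 6.16 in MG cells with vehicle, neither well above background. With 5-azacytidine the signal was 11.1 in non-MG cells, still not well above background, and 17.0 in MG cells, well above background. The rise was at least 1.52-fold in MG cells, close to the threshold, and no ratio was given for non-MG cells. MAGEA10, an antigen found in several carcinomas, had a signal of 2.23, 2.14 and 2.49 on the first 3 arrays and 6.29 in MG cells with 5-azacytidine, none of them well above background. MAGEA11, a coregulator of the androgen receptor, was printed in 10 spots, and none of its 9 or 10 kept spots was well above background on any array. Its median spot signal was 2.30 in non-MG cells with vehicle, 2.70 in non-MG cells with 5-azacytidine, 2.53 in MG cells with vehicle and 4.64 in MG cells with 5-azacytidine. The signals of MAGEA10 and MAGEA11 were highest in MG cells with 5-azacytidine, and neither gave more than a limit by this flag. By the laxer flag for positive and significant signals, MAGEA11 passed on both arrays with 5-azacytidine and on neither with vehicle, and MAGEA10 passed in MG cells with 5-azacytidine. MAGEA1 and MAGEB1 passed it on both arrays with 5-azacytidine and also in MG cells with vehicle.

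**Figure D2:**
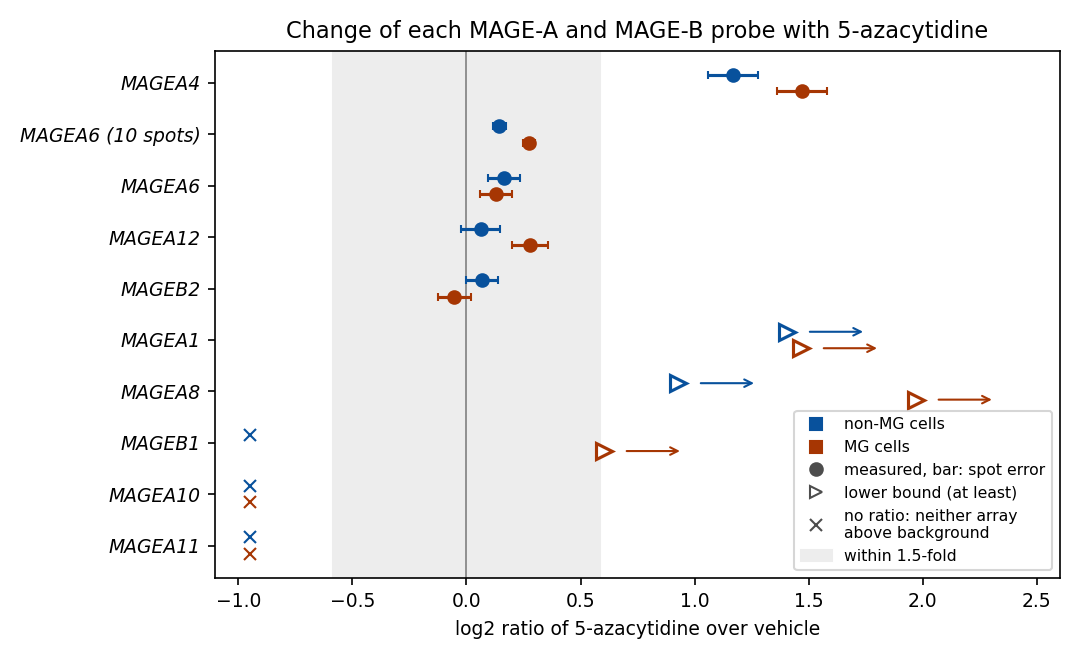
The log2 ratio of 5-azacytidine over vehicle (horizontal axis) for each MAGE probe in non-MG cells (blue) and MG cells (brown), with circles for measured ratios with their spot error, open triangles for lower bounds and crosses, placed at the left edge, where neither array was well above background. MAGEA6, MAGEA12 and MAGEB2 lie within the grey 1.5-fold zone, and MAGEA4 at 1.17 and 1.47. The lower bounds of MAGEA1, MAGEA8 and MAGEB1 lie to the right of the zone, that of MAGEB1 (0.60) only just.

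Counted over genes retained by the filter on dim probes, and by ratios as computed from all signals, MAGEA1, MAGEA4, MAGEA8 and MAGEB1 passed 1.5-fold upward with 5-azacytidine in both subpopulations, and no member passed it downward. MAGEA1, MAGEA8 and MAGEB1 were retained only through arrays with 5-azacytidine, so their passing follows from that filter and is not read as evidence. The background was 4.82% of 14314 retained genes raised and 3.18% lowered in non-MG cells, and 6.49% raised and 4.28% lowered in MG cells. Over the 4 members well above background on all 4 arrays, the median log2 ratio was 0.11 in non-MG cells and 0.24 in MG cells, compared with -0.05 and -0.01 over all 12751 genes with such probes. Of these 4 members only MAGEA4 passed 1.5-fold, in both subpopulations. With normexp, MAGEA4 and MAGEA8 still passed 1.5-fold in both subpopulations, while MAGEA1 gave log2 ratios of 0.58 in non-MG cells and 0.49 in MG cells, both under the threshold, and MAGEB1 0.31 and 0.11. For such dim signals the offset by itself lowers the ratio, but its share in these lower values was not tested. These values are not read as evidence.

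Between the subpopulations, the members expressed with vehicle were somewhat higher in MG cells. With vehicle the log2 difference between MG and non-MG cells was 0.25 ± 0.11 for MAGEA4, 0.35 ± 0.03 and 0.36 ± 0.07 for both probes of MAGEA6, 0.44 ± 0.09 for MAGEA12 and 0.23 ± 0.07 for MAGEB2, all above 0 and none past 1.5-fold. By ratios as computed, MAGEB1 alone passed it, at 1.09 ± 0.48 from a pair of signals that were both near background. The background was 7.79% of retained genes higher and 10.5% lower in MG cells. Between the same vehicle arrays, 3 of the 8 epithelial markers were lower in MG cells past 1.5-fold: CLDN3 (-0.85), CLDN4 (-0.73) and CDH1 (-0.66). Of the 4 retained melanocyte markers, 3 were lower too by ratios as computed. DCT, 1 of these 3, was well above background on neither vehicle array. With 5-azacytidine the log2 difference was 0.55 ± 0.11 for MAGEA4, 0.49 ± 0.03 and 0.32 ± 0.07 for MAGEA6, 0.66 ± 0.08 for MAGEA12 and 0.11 ± 0.07 for MAGEB2. MAGEA8 and MAGEA12 passed 1.5-fold upward and no member passed it downward, beside 8.24% of retained genes higher and 9.1% lower.

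These ratios depended on the scaling of the arrays. When each array was centred on its median in place of its 75th percentile, the median over all retained genes moved from 0.01 to 0.20 with vehicle and from 0.04 to 0.30 with 5-azacytidine. MAGEA12 then passed 1.5-fold with vehicle (0.64), and MAGEA4, MAGEA6, MAGEA8 and MAGEA12 passed it with 5-azacytidine. The share of higher genes among all past the threshold went from 42.5% to 72.8% with vehicle and from 47.5% to 83.8% with 5-azacytidine. With quantile normalization MAGEA12 was at 0.56 and did not pass, and MAGEB2 was just below 0.

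The MAGE-A genes lie in Xq28 and MAGEB1 to MAGEB4 in Xp21, and MAGEA6 and MAGEA12, both expressed with vehicle, lie in one block of Xq28. In the order of the RefSeq annotation, the matched genes from MAGEA2B through CSAG1, MAGEA12, CSAG4 and CSAG3 to MAGEA6 were each well above background on every array, and MAGEA3 belongs to the same block. CSAG1 and CSAG3, which are further cancer-testis antigens, had log2 ratios with 5-azacytidine of -0.07 and -0.21 in non-MG cells and 0.10 and 0.02 in MG cells. MAGEA2B, an almost identical copy of MAGEA2, was at 0.20 and 0.41. The most upstream start of MAGEA12 lies 36 bases from that of CSAG1 on the other strand, in a head-to-head pair whose genes both stayed within 1.5-fold with 5-azacytidine. MAGEA8 and MAGEA11 lie near one end of the MAGE-A cluster and MAGEA1 at the other, outside this block. Between MAGEA8 and the block lie MAGEA4 and MAGEA10, and also genes expressed on every array, such as MTMR1 and VMA21. In Xp21 MAGEB2 was expressed on every array, while MAGEB3 and MAGEB4, which lie between it and MAGEB1, were well above background on none of the arrays.

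**Figure D3:**
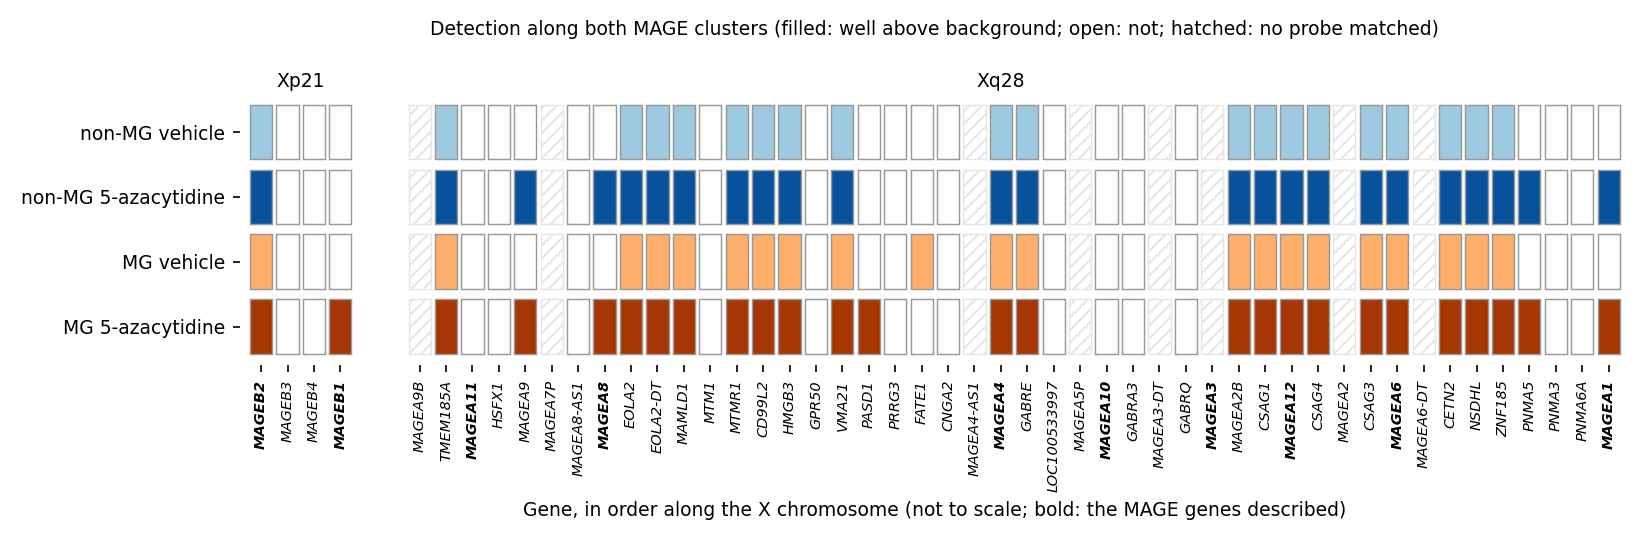
Detection of genes along Xp21 and Xq28, in annotation order along the X chromosome and not to scale, with 1 row per array. Filled boxes mark genes well above background, open boxes those that were not, and hatched boxes MAGE genes with no matched probe (other genes without a probe are left out). The run from MAGEA2B to MAGEA6 is filled on all 4 arrays where a probe was matched, and MAGEA8, MAGEA9, PNMA5 and MAGEA1 are filled on both arrays with 5-azacytidine and on neither with vehicle.

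Among 17 other type I MAGE genes, 13 had a probe, and MAGEA9 was the one that came above background with 5-azacytidine. MAGEA9 is a near neighbour of MAGEA8, and their promoter windows were 70.3% identical. Its signal was 2.02 in non-MG cells and 2.30 in MG cells with vehicle, and 124 and 191 with 5-azacytidine, which was at least 14.3-fold higher in non-MG cells and at least 17.0-fold higher in MG cells. The filter on dim probes left MAGEA9 out of the counts, since both of its vehicle signals were in the lowest 20th percentile. The 8 matched MAGE-B genes and 3 MAGE-C genes of the list were well above background on none of the arrays. A further Xq28 gene, PNMA5, of a family of paraneoplastic antigens, was the neighbour that passed 1.5-fold, of 27 matched and 14 retained. PNMA5 rose from 10.3 to 76.9 in non-MG cells and from 7.99 to 276 in MG cells, at least 8.66-fold and at least 24.6-fold. It was retained only through arrays with 5-azacytidine, so its passing follows from that filter and is not read as evidence. Over all retained genes, 4.82% were raised and 3.18% lowered in non-MG cells, and 6.49% and 4.28% in MG cells. A count of 1 among 14 lies near the general share. None of the listed neighbours that were retained fell past 1.5-fold. EOLA2-DT, a non-coding gene close to MAGEA8 that is not on the list and was named after its values were seen, had a log2 ratio of -0.46 in non-MG cells and -0.59 in MG cells, past the threshold in the latter.

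The type II MAGE genes are expressed in many normal tissues. Of 11 listed, 10 had a probe, and 5 (MAGED1, MAGED2, MAGEE1, MAGEF1 and NSMCE3) were well above background on all 4 arrays, with 0 raised and 0 lowered by 5-azacytidine. Of all 12751 genes above background on every array, 227 were raised and 184 lowered in non-MG cells and 374 and 205 in MG cells, so a count of 0 among 5 genes lies near the general share. MAGED1, a regulator of p75 neurotrophin receptor signalling, had a log2 ratio of 0.12 in non-MG cells and -0.04 in MG cells. MAGED2, a protein of renal salt handling, was at -0.22 and -0.06.

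Of 16 enzymes and factors listed here as regulators of MAGE promoters, 13 were retained, each above background on every array. Whether each acts on these promoters was not tested. None of the 13 passed 1.5-fold with 5-azacytidine in either direction, near the low share among all genes above background on every array. DNMT1, the maintenance methyltransferase and a target of 5-azacytidine, had a log2 ratio of 0.13 in non-MG cells and -0.01 in MG cells. CTCFL, a testis factor that acts on cancer-testis promoters, was well above background on none of the arrays. Between the subpopulations with vehicle, UHRF1, which guides DNMT1 to newly copied DNA, was higher in MG cells (log2 ratio 0.66) and SP1, a factor that binds GC boxes, was lower (-0.73), and these genes were named after their values were seen. Of 13 partners and substrates of MAGE ubiquitin ligases, 10 were retained, TRIM28 among them, at 0.04 in non-MG cells and 0.17 in MG cells. None was raised by 5-azacytidine, which is again near the general share. LNX1, a ubiquitin ligase, was lowered in non-MG cells (-0.78) and was at -0.07 in MG cells, and was also named after its value was seen.

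Some markers of other cell types changed with 5-azacytidine, in either direction. Of 8 germ cell markers, 1 was well above background with vehicle in each subpopulation, and with 5-azacytidine it was 2 in non-MG cells and 3 in MG cells. SYCP3, a protein of the meiotic chromosome axis, rose at least 3.15-fold in non-MG cells and at least 2.66-fold in MG cells, while ACR, the sperm protease acrosin and the marker above background with vehicle, fell past 1.5-fold in non-MG cells (log2 ratio -0.67) and was at -0.40 in MG cells. DDX4, the germ cell helicase, was well above background on none of them. The summed level of the germ cell list, as a multiple of the 75th percentile of the array, was 0.958 and 1.13 in non-MG cells with vehicle and with 5-azacytidine, and 0.649 and 1.01 in MG cells. Of 7 matched leukocyte markers, 3 were raised in non-MG cells and 4 in MG cells, CD14 and CD3D in both. The summed level of the leukocyte list was 1.35 and 1.94 in non-MG cells, and 1.08 and 1.96 in MG cells. That of the fibroblast list was 1.28 and 1.39 in non-MG cells and 0.824 and 1.04 in MG cells, and THY1 was its 1 raised gene in each. That of the melanocyte list was 2.90 and 2.69 in non-MG cells and 1.89 and 2.12 in MG cells. That of the epithelial list was 1364 and 1307 in non-MG cells and 1151 and 1136 in MG cells. The part of any other cell type in the MAGE values was not tested.

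The promoter windows of the members were compared over 300 bases, from 250 before to 50 after the RefSeq start. Of the 10 members, 8 had a window, 14 windows in all, since MAGEA4 has 5 starts in the table and MAGEA12 and MAGEB1 have 2 each. The windows of MAGEA3 and MAGEA6 were identical over all 300 bases. They held 19 CpG, while MAGEB2, well above background on every array, and MAGEA11, well above background on none, held 21 each. MAGEA8 held 12 and the windows of MAGEA4 10 to 15. MAGEA12 held 9 at its first start and 15 at its second. MAGEB1 held 1 CpG at its first start and 18 at its second, and the window of the second was 62.8% identical to that of MAGEB2. Over all 35116 windows of the table the median was 14 CpG, with the middle range from the 25th to the 75th percentile between 4 and 28. All member windows but the first of MAGEB1 lay in that middle range, and CpG number did not order the members by their response. The arrays do not show which start was used.

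Letters of 2 factor motifs were searched on both strands. The letters CCGGAA, 1 form of the ETS motif, were found in the windows of MAGEA3 and MAGEA6 alone, at position -113 from the start, and in 17.2% of all windows. Other forms of the ETS motif were not searched as such, so these matches do not tell which members hold an ETS site. The Sp1 motif GGGCGG was found in 6 member windows, those of MAGEA8 (2 matches), MAGEA11 (4 matches) and MAGEA4 (1 match at each of 4 starts), and in 45.0% of all windows. No member window held both CCGGAA and GGGCGG. A stretch of shared letters, GGATGTGA, chosen after the windows were read, was found in 12 of the 14 windows, in 7 of the 8 members, and in 1.16% of all windows. Its first letters, GGAT, differ by 1 letter from the GGAA of CCGGAA, and whether it is an ETS site was not tested. It lies in the printed run of each gene except MAGEB1. It was present in members that were expressed with vehicle, members that rose and a member well above background on no array. A match is a run of letters, and binding was not measured.

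**Figure D4:**
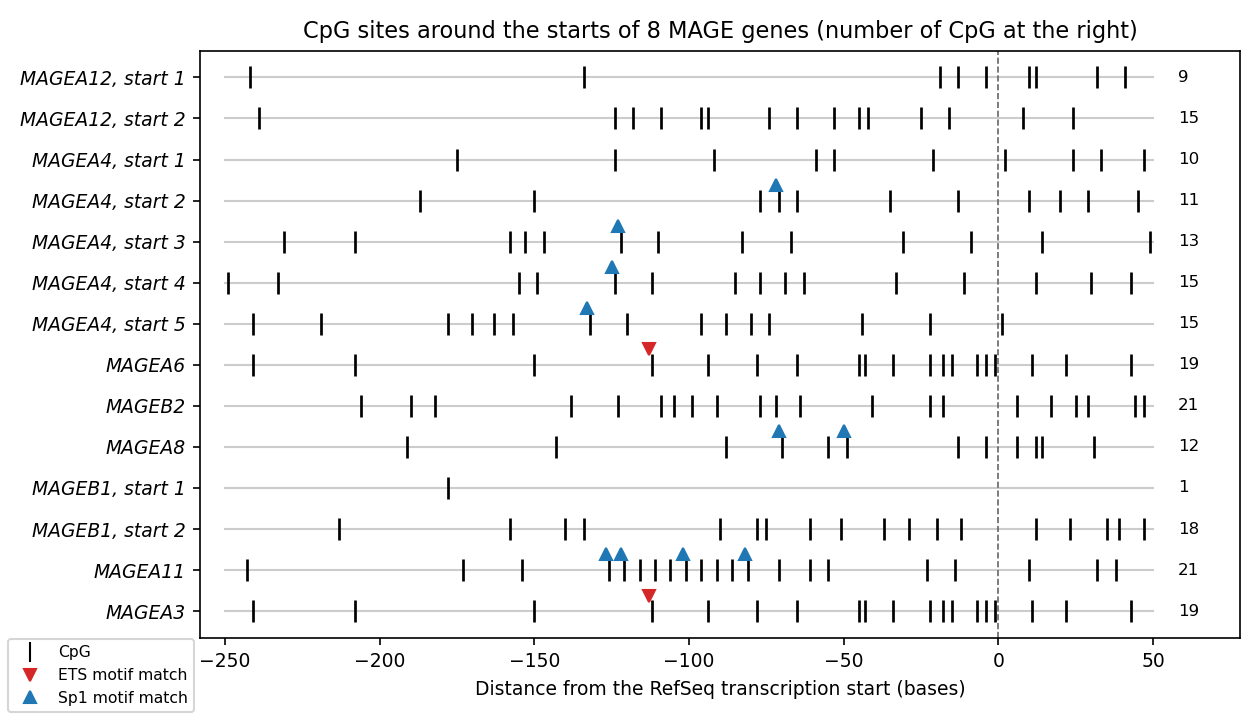
Position of each CpG (black ticks) and of matches to CCGGAA (ETS, red) and GGGCGG (Sp1, blue) around each RefSeq start of 8 MAGE genes. Each window runs from 250 bases before to 50 after the start. The horizontal axis is in bases from the start, and the CpG number of the window is at the right. Windows of the steadily expressed MAGEA6 and MAGEB2 hold 19 and 21 CpG, and that of MAGEA11, well above background on no array, also holds 21.

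Some member values are uncertain by sequence. MAGEA3 and MAGEA6, MAGEA2, MAGEA2B and MAGEA12, and MAGEA9 and MAGEA9B are close copies of one another. The files used give no probe sequences, so how far a probe of one gene also measured its copies was not tested, and a signal named MAGEA6 may include MAGEA3.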

How the data were processed

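RNA of MG and non-MG HCT116 cells, treated with vehicle or 5-azacytidine, was hybridized to 4 one-colour arrays (Cy3, 400 ng RNA), 1 per condition. Groups were taken from the sample titles. The labels name RNAiso Plus for RNA extraction, and the paper's methods name an RNeasy kit. The authors deposited Agilent Feature Extraction 11.5.1.1 output, whose intensity values are background-corrected, linear and not normalized between arrays. A second deposited file holds the authors' log2 values of 24189 probes, each centred on its median over the arrays, and differences between arrays in it matched the scaling used here (Pearson r = 1.0 across 24161 probes, which are not independent), so it served as an alternative. The paper names GeneSpring with filters on the lowest 20th percentile and on flags.

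Control and outlier spots were left out, spots of a probe averaged, and each array's 75th percentile taken off the log2 signals. Counts left out probes that no array showed well above background and probes that at least 2 arrays had in their lowest 20th percentile. Accessions were matched, without version, to RefSeq (GRCh38.p14), and probes of a gene averaged. The array design was made for an earlier build. A change is past 1.5-fold. Where 1 array was not well above background, a bound was set against the higher of the lowest signal well above background on that array and the probe's own signal there, and with neither array above it, no ratio is given. Some probes brighter than that lowest signal were not flagged as well above background, so the bounds hold for this choice of limit. The fold threshold, filter and gene lists were chosen with earlier results of these data known, as were the members. Named genes were all members, up to 4 genes a list past 1.5-fold with 5-azacytidine in both subpopulations, and the brightest 2 type II MAGE genes. The counting was tested on simulated arrays. The planned comparison of proteins was not made. Alternatives were normexp background correction on median spot intensity, quantile normalization, median centring, other filters, the brightest probe, the authors' table and a 2-fold threshold. Python 3.11.15 (pandas 2.3.3, numpy 2.4.6, matplotlib 3.10.9, Biopython) and limma 3.58.1 in R 4.3.3 were used.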

Additional observations from a re-analysis of the deposited data

Results flagged for a closer look

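MAGEB2 was the member whose measured change with 5-azacytidine went up in one subpopulation and down in the other. Its log2 ratio to vehicle was 0.07 in non-MG cells and -0.05 in MG cells, a difference of -0.12 (MG minus non-MG) beside a spot error of 0.10. With 1 array per condition the difference was not tested, and both ratios lie within 1.5-fold. In non-MG cells the ratio was also below 0 with normexp background correction (-0.06) and with median centring (-0.03).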

How the results depend on the processing

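The main counts of members past 1.5-fold, among 7 retained, were 4 with 5-azacytidine in each subpopulation. MAGEA1, MAGEA8 and MAGEB1 are among these 4 and were retained only through arrays with 5-azacytidine. Between the subpopulations they were 1 with vehicle and 2 with 5-azacytidine. In this order the counts were 2, 2, 0 and 1 with normexp background correction, and 1, 1, 0 and 1 among 4 members when every array had to be well above background. Over all 14314 retained genes, 690 were raised with 5-azacytidine in non-MG cells and 929 in MG cells, and with normexp 81 and 186. Between the subpopulations, median centring gave 2 with vehicle and 4 with 5-azacytidine, quantile normalization gave 1 with 5-azacytidine, signals raised to the detection limit gave 0 with vehicle, and the 2-fold threshold gave 1 with 5-azacytidine. Median centring also took all retained genes higher in MG cells from 1115 to 2309 with vehicle and from 1180 to 3158 with 5-azacytidine. Other member counts stayed within 1.5 times the main count. The 4 members above background on both vehicle arrays were also 4 by the brightest probe and by the flag for positive and significant signals. By that flag MAGEA1 and MAGEB1 also passed with vehicle in MG cells, though not in non-MG cells. Of 212 ratios of single members under these alternatives, 45 moved by more than the spot error, and no ratio past 1.5-fold changed sign. Of these 45, 20 moved with normexp, whose offset by itself makes ratios of dim probes smaller. Among all genes past 1.5-fold, the share that was raised went from 60.3% to 44.0% with median centring for 5-azacytidine in non-MG cells. With normexp it went from 60.3% to 77.8% for 5-azacytidine in MG cells, and between the subpopulations from 42.5% to 60.8% with vehicle and from 47.5% to 83.2% with 5-azacytidine. The cause of these shifts was not tested. No paired analysis was possible because the conditions share only 1 replicate number, and no replicate could be left out. An additive fit of cell type and treatment over the 4 arrays, which would take their interaction as error, was not made. Signal over background limits MAGEA1, MAGEA8, MAGEA10, MAGEA11 and MAGEB1, whose vehicle signals give only a limit.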
